A study of Mus musculus with 3 samples.

Results

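Alveolar macrophages made up 266 of the 2628 cells kept from a single-cell RNA-Seq library of naive mouse left lung, or 10.1% (exact Clopper-Pearson 95% interval 8.99% to 11.3%). They were chosen by transcript counts alone. A cell was kept when it held more than 200 genes and under 10% mitochondrial counts, with no upper limit, and it was called an alveolar macrophage when *Ear1*, *Marco*, *Plet1*, *Atp6v0d2* and *Krt79* together reached at least 3 unique molecular identifiers (UMIs, each counting 1 captured transcript) and at least 0.1% of its UMIs. The complement genes *C1qa*, *C1qb* and *C1qc* had to stay under 0.2% of UMIs, and *Cd79a* and *Cd3e*, of B and T cells, at 2 UMIs or fewer together.

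The study prepared 3 libraries, each from the left lungs of 2 pooled mice aged 8 to 10 weeks: naive lungs, and lungs from a CD45.2 donor transplanted into a CD45.1 recipient, harvested after 2 hours or 3 days of reperfusion. The labels give the strain of all 3 as C57BL/6J, and the methods name the congenic CD45.1 strain as B6.SJL-Ptprca Pepcb/BoyJ. Grafts had been kept cold at 4 °C for 60 minutes and warm at 28 °C for 45 minutes, whereas naive lungs had no ischemia. Cells were stained for CD45.1, CD45.2 and the viability dye DAPI and sorted for recipient CD45.1 cells, and the sources used here do not say which gate was used for naive mice, which hold no recipient. The sort was meant to leave donor cells, resident macrophages of the graft among them, out of the transplant libraries. The same rule found 7 cells among 10283 kept at 2 hours (0.0681%, interval 0.0274% to 0.140%) and 8 among 8514 at 3 days (0.0940%, interval 0.0406% to 0.185%), which were counted and not analysed further. The kept cells of these libraries had medians of 878 UMIs at 2 hours and 5797 at 3 days, against 7729.5 in the naive library, and fewer UMIs make the minimum of 3 rule UMIs harder to reach. Depth, ischemia, reperfusion and the sort cannot be told apart in these shares. Every value below therefore comes from 1 library, with no replicate check, no test and no p-value, and the intervals cover counting error only.

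Alveolar macrophages live on the air side of the alveolus, where they take up and break down surfactant lipid and protein, inhaled particles and dying cells. They are seeded around birth and renew themselves locally, under granulocyte-macrophage colony-stimulating factor (GM-CSF) from the epithelium and autocrine TGF-β, which sustain the transcription factor PPARγ. Interstitial macrophages, by contrast, lie in the tissue and many of them make C1q, while monocytes arrive from blood.

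The naive library held 28538529 UMIs over 2921 deposited cells. The alveolar macrophages were the deepest class gated in it, with a median of 27856.5 UMIs (lowest 2136, highest 73379) and 5418 genes. Their median was above those of 5 comparison classes gated in the same library by other genes, which were 13350 UMIs in 139 monocytes, 11018 in 9 C1q macrophages, 10161.5 in 520 T cells, 6379.5 in 490 B cells and 5710 in 345 neutrophils. The alveolar macrophages were 10.1% of kept cells and carried 27.4% of their UMIs. Monocytes were gated on *Csf1r* together with *Ly6c2*, *Ms4a4c*, *Ace*, *Treml4* and *F13a1*, C1q macrophages on the C1q genes, T cells on the *Cd3* genes, B cells on *Cd79a*, *Cd79b* and *Ms4a1*, and neutrophils on *S100a8* and *S100a9*, so these genes are no finding between the classes. The C1q class rests on 9 cells and 132582 UMIs, so its levels are the least certain in what follows. Another 839 kept cells met no class gate, and 20 met more than 1.

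This depth placed most of them outside the cell limits stated in the study's methods, which keep cells under 6000 genes and under 25000 UMIs. Of the 266 alveolar macrophages, 164 (61.7%, interval 55.5% to 67.5%) were over at least 1 limit, all 164 of them over the UMI limit and 57 also over the gene limit. Among the other 2362 kept cells only 42 (1.78%) were over either, so that alveolar macrophages made up 79.6% of the 206 kept cells above the limits. Within the limits, 102 alveolar macrophages remained among 2422 cells, a share of 4.21% (interval 3.45% to 5.09%). Scrublet, a doublet caller run on all kept cells of the library, called 5 of the 266 (1.88%) doublets and 48 cells (1.83%) of the whole library. No barcode of the 266 was shared with the 2-hour library and 1 was shared with the 3-day library.

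**Figure D1:**
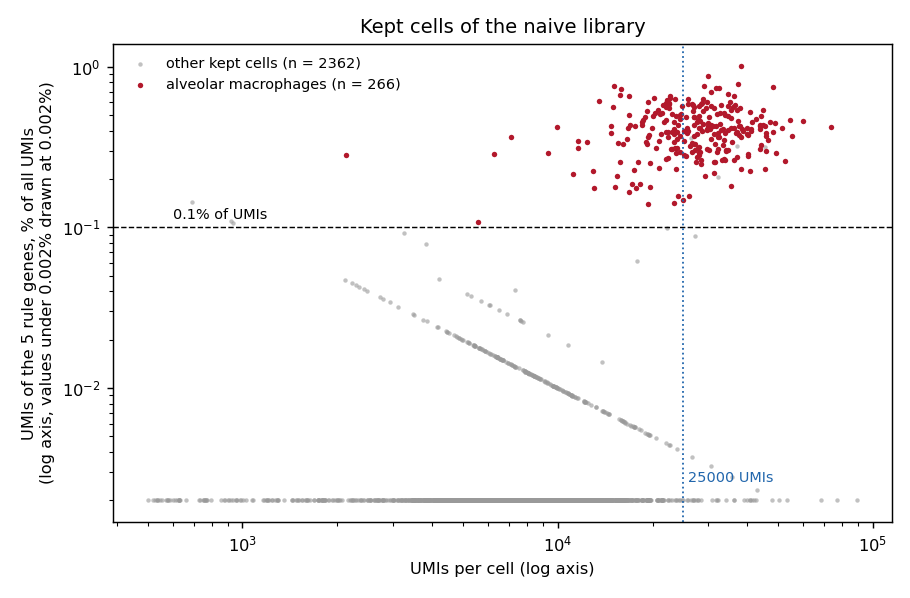
Each point is 1 kept cell of the naive library, with its UMIs on the horizontal log axis and the percent of UMIs on the 5 rule genes on the vertical log axis; the dashed line marks the 0.1% of the rule and the dotted line the study's limit of 25000 UMIs. The vertical axis chose the 266 alveolar macrophages, whose median rule-gene share was 0.405%, and 164 of them lie to the right of the dotted line.

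The 5 rule genes are described here only as what chose the cells. *Plet1*, an epithelial surface protein, had at least 1 UMI in all 266 cells. *Atp6v0d2*, a subunit of the proton pump that acidifies lysosomes, had one in 264, and *Ear1*, a secreted ribonuclease, in 262. *Krt79*, a keratin, was found in 228 cells and *Marco*, a scavenger receptor for bacteria and particles, in 113 (42.5%). All 5 were found together in 102 cells, so *Marco* was the gene most often missing. At the edge of the rule, the 3 cells just inside held 0.107%, 0.139% and 0.141% of UMIs on these genes, and the 3 just outside that met every other condition of the rule held 0.0988%, 0.0919% and 0.0784%. The limit on C1q removed no cell and that on *Cd79a* and *Cd3e* removed 6, and 263 of the 266 held no C1q UMI at all.

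*Ear1* has a near copy, *Ear2*, and both belong to a cluster of ribonuclease genes on chromosome 14. Their annotated transcripts are 96.8% identical over 713 aligned bases, so the split of reads between them is uncertain. The levels assigned to the 266 cells were 922 CPM (UMIs of a gene per 1000000 UMIs of the class) for *Ear1* and 1623 CPM for *Ear2*. Other genes of the cluster were close to 0, with *Ear6* at 3.29 CPM and *Ear10* and *Ear14* at 0. The promoters of the pair, from RefSeq on GRCm38.p6 (250 bases before to 50 after the start), are shown because the likeness reaches past the transcripts: 294 of 297 aligned bases are the same, and capitals mark the aligned bases that differ and a base of *Ear2* inserted between them, while the bases beyond either end of the aligned stretch stay in lower case. *Ear1* lies at chr14:43819590-43819889 on the minus strand and *Ear2* at chr14:44102404-44102703 on the plus strand.
Ear1: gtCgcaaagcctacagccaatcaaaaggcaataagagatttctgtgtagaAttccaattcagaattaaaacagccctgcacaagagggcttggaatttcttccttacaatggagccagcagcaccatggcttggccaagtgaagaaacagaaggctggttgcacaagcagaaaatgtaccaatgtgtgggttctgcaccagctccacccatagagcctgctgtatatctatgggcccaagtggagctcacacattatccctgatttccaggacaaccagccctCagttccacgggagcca
Ear2: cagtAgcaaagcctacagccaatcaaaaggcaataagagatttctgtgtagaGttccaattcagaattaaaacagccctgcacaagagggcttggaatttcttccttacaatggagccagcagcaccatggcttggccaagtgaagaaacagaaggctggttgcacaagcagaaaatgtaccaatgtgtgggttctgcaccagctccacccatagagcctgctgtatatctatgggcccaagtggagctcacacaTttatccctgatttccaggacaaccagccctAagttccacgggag

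The label was checked against markers of alveolar macrophages that the rule did not use, and they were high in the chosen cells. Of 20 such genes, 18 were at least 4-fold higher than in monocytes, where 3.77% of all 9496 genes tested were, and none was 4-fold lower. Their median log2 ratio was 3.71, against 0.16 for all genes tested. Here and below a gene counts as 4-fold higher or lower on the log2(CPM + 10) scale, which understates the ratio of low genes, while the CPM values given are without that addition. Against the highest of all 5 classes, 12 of the 20 were at least 4-fold higher, against 1.47% of 8893 genes tested, with a median of 2.82. These cells were selected on transcripts of the same library, so the counts describe them and test nothing.

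*Chil3*, which encodes the chitinase-like protein Ym1, stood at 10109 CPM in alveolar macrophages (exact Poisson interval 10037 to 10180), 986 in monocytes, 603 in C1q macrophages, 422 in neutrophils, 31.5 in B cells and 42.5 in T cells. Its near copy *Chil4*, 94.4% identical in transcript, was at 0. *Siglecf*, a sialic acid-binding receptor that eosinophils share, was at 131 CPM and had a UMI in 228 of the 266 cells. The highest other class was C1q macrophages at 7.54 CPM, from 1 of the 9 cells. The eosinophil genes *Epx* and *Prg2* were at 0.131 and 0 CPM, and 7 of 11 markers of eosinophils, basophils and mast cells were at 0 with 1.31 CPM in sum. *Car4*, a carbonic anhydrase on the cell surface, reached 428 CPM with 30.2 in the next class. *Itgax*, the integrin subunit CD11c, reached 377 CPM against 60.2 in monocytes, while *Itgam*, the subunit CD11b of most other myeloid cells and named here although it is in none of the 20, was at 7.89 CPM against 481 in monocytes and 744 in neutrophils. High CD11c with low CD11b is the textbook surface pattern of these cells.

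*Pparg* and *Fabp5* were the 2 markers short of 4-fold over monocytes. *Pparg*, the nuclear receptor that directs lipid handling, was at 350 CPM in alveolar macrophages (interval 337 to 363) and at 284 in the gated monocytes, a log2 ratio of 0.30 (interval 0.17 to 0.44), yet at 7.54 CPM or lower in the other 4 classes. *Fabp5*, a fatty acid-binding protein, was at 240 against 64.3 CPM. *Cd2*, an adhesion molecule of lymphocytes, was at 271 CPM in alveolar macrophages, 12 in monocytes, 268 in B cells and 358 in T cells. *Cd2* therefore separated them from monocytes and not from lymphocytes.

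**Figure D2:**
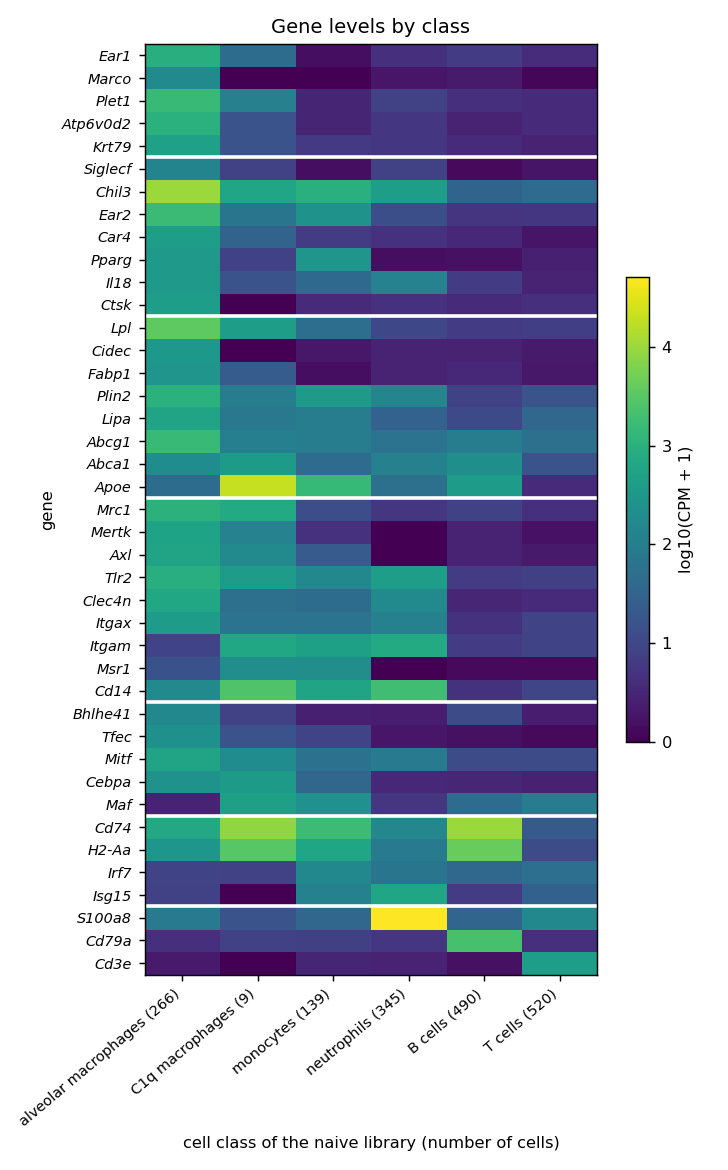
Rows are genes named in the text and columns the alveolar macrophages and 5 comparison classes of the naive library, with the number of cells in brackets; colour is log10(CPM + 1) of the summed UMIs. Most marker and lipid genes are brightest in the first column, whereas Apoe, Itgam, Maf, Cd74 and H2-Aa are darker there than in C1q macrophages.

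Among genes with at least 50 UMIs in alveolar macrophages, 131 of 8893 (1.47%) were at least 4-fold higher there than in each of the 5 classes. With 1 in place of 10 added to the CPM, 266 were. The 5 with the largest ratio over the highest class, on the log2(CPM + 10) scale, were *Ctsk*, *Cidec*, *Kcnip4*, *Slc7a2* and *Lepr*. *Ctsk*, a collagen-degrading lysosomal protease, was at 417 CPM and at most 3.74 CPM in any other class, with no UMI in C1q macrophages. It was 18.4-fold higher than in C1q macrophages if 3 counts are allowed there, and the exact interval of that log2 ratio starts at 3.91. *Cidec*, which enlarges lipid droplets, was at 331 CPM and at most 1.87 elsewhere. *Slc7a2*, a transporter of arginine and other cationic amino acids, was at 686 CPM against 22.6 in C1q macrophages and at most 2.34 in the other 4 classes. These genes had few UMIs in any other class.

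Receptors and other genes not usually tied to macrophages followed. *Htr2c*, a serotonin receptor best known in brain, was at 418 CPM against 15.1 in C1q macrophages and no UMI in monocytes. It was 267-fold higher than in monocytes if 3 counts are allowed there, and the exact interval of that log2 ratio starts at 7.76. *Lepr*, the leptin receptor, was at 187 CPM with none in C1q macrophages or T cells. *Ereg*, a ligand of the EGF receptor, was at 140 CPM against 1.87 in neutrophils. The keratin *Krt19* was at 600 CPM against 37.7 in C1q macrophages, all of it in 1 cell. *Epcam* and *Cdh1*, adhesion proteins of epithelium, were at 94.8 and 50.4 CPM against 9.17 or lower. Of the 6 of 14 epithelial markers tested against every class, these 3 were 4-fold higher and *Napsa*, an aspartic protease, was lower, at 28.4 CPM against 492 in monocytes (1.47% and 7.6% of all genes tested). Against monocytes alone 3 of 7 were higher and 2 lower (3.77% and 3.26%). The surfactant gene *Sftpc*, which defines type II cells, was at 9.07 CPM and between 2.41 and 7.54 CPM in every other class, and *Krt8*, *Krt18*, *Sftpb* and *Ager* were at 0 to 1.58 CPM. The epithelial list summed to 819 CPM in alveolar macrophages, most of it *Krt19*, and to 626 CPM in monocytes.

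*Kcnip4*, a binding partner of neuronal potassium channels, was the most unequal of all against monocytes on the log2(CPM + 10) scale. It stood at 4046 CPM in alveolar macrophages (interval 4001 to 4092), 136 in C1q macrophages and between 1.87 and 3.66 in the other 4 classes. The C1q UMIs all lay in 1 of the 9 cells (11.1%). The log2 ratio of *Kcnip4* over monocytes was 10.11 (interval 9.07 to 11.42). It was found in 257 of 265 alveolar macrophages even after each was thinned to 5000 UMIs. *Kcnip4* spans 1135 kb of chromosome 5 (48389502 to 49524907, minus strand, GENCODE vM21 on GRCm38). Long genes were common among the 131: their median span was 65.1 kb against 26.4 kb for all genes tested, and 4.08% of the 1176 tested genes over 100 kb were among them against 0.908% of the 1982 under 10 kb. Over monocytes the median log2 ratio of long and of short genes was 0.16 and 0.09. The sources used here do not say whether reads in introns were counted, and the part of introns in the levels of long genes was not tested.

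Genes of lipid handling were high in several but not all steps. Surfactant lipid is taken up, split in lysosomes, stored as droplets, burned or exported as cholesterol, and the lists were read in that order against monocytes. Of 9 uptake genes tested, 2 were 4-fold higher and 1 lower, against 3.77% and 3.26% of all genes tested. *Lpl*, lipoprotein lipase, was at 3476 CPM against 49.2, a log2 ratio of 6.14 (interval 5.85 to 6.45), and *Olr1*, a receptor for oxidized lipoprotein, at 825 against 178. The scavenger receptor *Msr1* was at 14.3 CPM against 215, and *Cd36*, a fatty acid transporter, was nearly level at 473 against 401. Uptake was thus led by other genes than *Msr1*. Against the highest of the 5 classes, 1 of the 9 was 4-fold higher and 2 were lower (1.47% and 7.6% of all genes tested). The median log2 ratio there was 0.17.

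Among 17 genes of surfactant and lipid breakdown, 5 were 4-fold higher than in monocytes and none was 4-fold lower, against 3.77% and 3.26% of all genes tested, with a median log2 ratio of 1.15. At 2-fold, 10 were higher and 1 was lower, where 12.3% and 9.34% of all genes tested were. *Lipa*, the lysosomal acid lipase, was at 559 CPM against 92.6, and *Pla2g15*, the lysosomal phospholipase that degrades surfactant phospholipid, at 130 against 8.37. *Npc1*, which moves cholesterol out of lysosomes, was at 182 against 33.0. Its partner *Npc2* went the other way, at 323 CPM against 776. Lysosomal genes were therefore among the higher members, together with the lipase activator *Abhd5* at 129 against 18.3 CPM. Against the highest of the 5 classes, 2 of the 17 were 4-fold higher and none was lower (1.47% and 7.6% of all genes tested). The median log2 ratio there was 0.72.

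Of 11 genes of fatty acid binding and storage, 2 were 4-fold higher (3.77% of all genes tested were) and 7 were 2-fold higher (12.3% of all genes), none being lower at either fold, with a median of 1.53. *Fabp1*, best known as the liver fatty acid-binding protein, was at 290 CPM against 0.523, and *Plin2*, the coat protein of lipid droplets, at 1038 against 352. *Fabp4*, often used as a marker of human alveolar macrophages, reached only 134 CPM against 57.5 in monocytes and 113 in C1q macrophages. Against the highest of the 5 classes, 2 of the 11 were 4-fold higher and 1 was lower (1.47% and 7.6% of all genes tested). The median log2 ratio there was 0.30. Of 7 genes of cholesterol efflux, 1 was 4-fold higher than in monocytes and 2 were lower (3.77% and 3.26%), with a median of 0.15. Of 6 tested against the highest of the 5 classes, 1 was 4-fold higher and 2 were lower (1.47% and 7.6%). The median log2 ratio there was -0.64. *Abcg1*, which loads cholesterol onto HDL, was at 1469 CPM and at most 106 in any other class. *Apoe*, the apolipoprotein, was at 44.8 CPM against 1444 in monocytes and 19520 in C1q macrophages, the most negative ratio of any gene against C1q macrophages on the log2(CPM + 10) scale. Without the added 10, *Saa3* and *Pf4*, at 0.394 and 1.71 against 3251 and 1659 CPM, were further apart. Of 15 genes of sterol synthesis none was 4-fold apart from monocytes or C1q macrophages in either direction. Of all genes tested, 3.77% were 4-fold higher and 3.26% lower than in monocytes, and 5.72% and 2.13% than in C1q macrophages. At 2-fold, 1 of the 15 was higher than in monocytes and none was lower (12.3% and 9.34% of all genes tested). Their median log2 ratio was -0.03 against monocytes (0.16 for all genes tested) and 1.18 against C1q macrophages (0.46 for all genes tested).

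Lysosomal genes were uneven. Of 20 proteases, hydrolases and membrane proteins, 3 were 4-fold higher than in monocytes and 1 lower, against 3.77% and 3.26% of all genes tested. *Ctsd*, an aspartic protease, was at 2998 CPM against 139, and *Cd63*, a lysosomal tetraspanin, at 96.1 against 5.23. *Cst3*, an inhibitor of cysteine proteases, was at 351 CPM against 2403, whereas *Ctsb*, *Ctss*, *Lamp1* and *Psap* were within 2-fold. None of the 17 subunits of the vacuolar proton pump beside the rule gene *Atp6v0d2* was 4-fold higher, although 6 were 2-fold higher, where 12.3% of all genes tested were, and the median was 0.77. The ubiquitous paralog *Atp6v0d1* was at 330 CPM against 190 in monocytes and 317 in neutrophils.

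Among 25 receptors for particles, microbes and dying cells, 9 were 4-fold higher than in monocytes and 3 were lower, against 3.77% and 3.26% of all genes tested. Against the highest of the 5 classes 3 were higher and 8 lower, where 1.47% and 7.6% of all genes tested were, with a median of -1.14, and the list summed to 6688 CPM, against 8108 in C1q macrophages and 9362 in neutrophils. *Mrc1*, the mannose receptor, was at 1066 CPM against 12, but C1q macrophages held 769. *Mertk* and *Axl*, receptors for apoptotic cells, were at 539 and 558 CPM against 3.66 and 22.0. *Tlr2*, which senses bacterial lipoproteins, was at 893 against 154 and *Clec4n*, the fungal receptor Dectin-2, at 626 against 44.5. The inhibitory receptor *Cd300a* was lower, at 22.2 CPM against 732, as were *Itgam* and *Msr1*. *Cd14*, the co-receptor for endotoxin, was at 171 CPM against 554 in monocytes and 2564 in C1q macrophages.

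Of 27 genes of lineage signalling and transcription, 7 were 4-fold higher than in monocytes and 1 was lower, against 3.77% and 3.26% of all genes tested. *Bhlhe41*, a repressor known for its role in the self-renewal of these cells, was at 156 CPM and at most 11.6 in any other class, and its paralog *Bhlhe40* was at 516 against 111 in monocytes and 626 in C1q macrophages. *Tfec* and *Mitf*, of the family that drives lysosomal genes, were at 235 and 570 CPM against 8.37 and 56.5. *Cebpa* was at 252 against 34.5 and *Egr2* at 114 against 1.57, both with higher levels in C1q macrophages. The GM-CSF receptor was not set apart as a whole, with *Csf2rb* at 447 against 166 CPM and *Csf2ra* at 210 against 303. *Smad3*, which carries TGF-β signals, was the lower gene at 3.94 against 173 CPM, although the receptor *Tgfbr1* was at 416 against 214. Of 26 genes tested against the highest of the 5 classes, 3 were 4-fold higher and 3 lower (1.47% and 7.6% of all genes). The median log2 ratio there was -0.56.

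*Maf*, a transcription factor of differentiated macrophages, was at 1.97 CPM, against 243 in monocytes and 483 in C1q macrophages. Of the 6 markers of interstitial macrophages and monocytes that did not gate the monocytes and were tested against them, 5 were 4-fold lower, where 3.26% of all genes tested were, with a median log2 ratio of -4.32. *Cx3cr1* and *Ccr2*, chemokine receptors, were at 11.8 and 11.2 CPM against 321 and 395. *Csf1r*, the receptor for M-CSF, was at 100 CPM, and monocytes, which were gated on it, at 563.

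**Figure D3:**
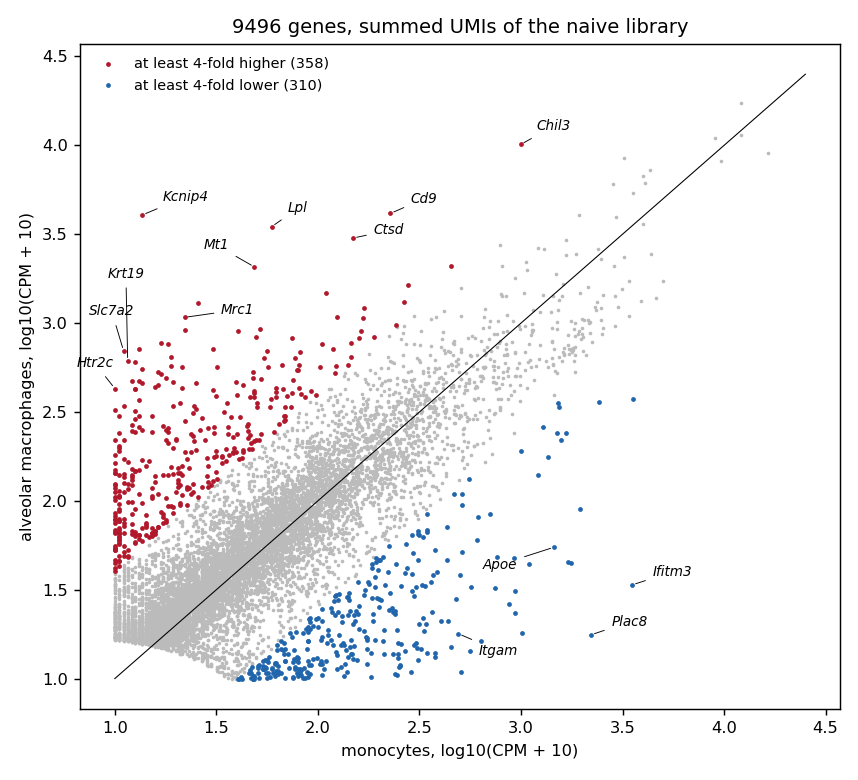
Each point is 1 of 9496 genes, placed by its level in the summed UMIs of 139 monocytes (horizontal) and 266 alveolar macrophages (vertical), both as log10(CPM + 10), with the line of equal level. The 358 genes at least 4-fold higher in alveolar macrophages are led by Kcnip4 at 4046 against 3.66 CPM, and the 310 at least 4-fold lower by Plac8 at 7.63 against 2201 CPM.

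Genes lower in alveolar macrophages than in monocytes numbered 310 of 9496 (3.26%) and on the log2(CPM + 10) scale were led by *Plac8*, at 7.63 against 2201 CPM, and *Ifitm3*, an antiviral membrane protein, at 23.7 against 3515. With 1 in place of 10 added to the CPM, 500 genes were 4-fold lower, and 856 in place of 358 were higher. Interferon-response genes were low against monocytes as a list, with 6 of 9 tested 4-fold lower, none higher and a median of -2.84. Against C1q macrophages none of 6 was 4-fold apart (5.72% of all genes were higher and 2.13% lower) and the median was -0.05, and the list summed to 192 CPM in alveolar macrophages, 272 in C1q macrophages, 250 in B cells, 467 in T cells, 1326 in monocytes and 1404 in neutrophils. *Isg15* was at 7.49 CPM against 117 and *Irf7*, which amplifies the response, at 8.41 against 160. Neutrophils held 582 CPM of *Isg15*, T cells 27.5 and B cells 5.81. The 9 C1q macrophages held no UMI, which allows up to 27.8 CPM by the exact interval. Alveolar macrophages were thus low for it, and which class was lowest is not read from these counts.

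MHC class II genes, which present antigen to CD4 T cells, were also low. None of 7 was 4-fold lower than in monocytes, where 3.26% of all genes tested were, with a median of -0.96, but 4 of 7 were 4-fold lower than in C1q macrophages, where 2.13% of 8968 genes were. *Cd74*, the invariant chain, was at 701 CPM against 1717 in monocytes, 8342 in C1q macrophages and 9921 in B cells. *H2-Aa* was found in 114 of 265 alveolar macrophages thinned to 5000 UMIs (43.0%, interval 37.0% to 49.2%), against 4.62% of T cells and 11.7% of neutrophils, which should lack it, so the share lay above both backgrounds. The share was 20.0% in monocytes and 6 of 8 C1q macrophages held a UMI, whereas the level was 295 CPM in alveolar macrophages, 581 in monocytes and 3085 in C1q macrophages. The share and the level thus gave opposite orders against monocytes, and no order is read from the share. Without thinning the shares were 65.0%, 11.2% and 14.5%, at median depths of 27856.5, 10161.5 and 5710 UMIs.

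Chemokines and cytokines were split by gene. Of 21 tested, 9 were 4-fold higher than in monocytes and 2 lower, against 3.77% and 3.26% of all genes tested. Of 19 tested against C1q macrophages 6 were higher and 6 lower (5.72% and 2.13% of all genes), with a median of -0.28. Of 19 tested against the highest of the 5 classes none was higher and 8 were lower (1.47% and 7.6% of all genes). *Spp1*, osteopontin, was at 753 CPM against 8.37 and *Il18* at 343 against 40.3. *Cxcl2*, which draws neutrophils, was at 1068 CPM against 115 in monocytes but 2049 in neutrophils and 7799 in C1q macrophages. *Il1a* was at 290 against 5.23, *Tnf* at 470 against 65.4 and the antagonist *Il1rn* at 331 against 9.42. *Il1b* was the reverse, at 286 against 532 CPM in monocytes and 6607 in neutrophils. *Ccl7*, a monocyte chemokine, was at 15.3 CPM in alveolar macrophages, 0.523 in monocytes and 1079 in C1q macrophages.

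Against the 9 C1q macrophages, 513 of 8968 genes (5.72%) were 4-fold higher and 191 (2.13%) were 4-fold lower. The minimum of 50 UMIs was counted over both classes together, and alveolar macrophages held most of those UMIs. The split moved with the processing: it was 908 and 99 with every cell thinned to 5000 UMIs, 924 and 124 within the study's cell limits, 1929 and 261 with 1 in place of 10 added to the CPM, and 513 and 331 with genes of 10 UMIs or more in place of 50. *Spp1*, *Ctsk* and *Mmp19*, a matrix metalloproteinase at 376 CPM with no UMI in C1q macrophages, were among the 10 highest. *Apoe*, *Pf4*, a chemokine of platelets and macrophages at 1.71 against 1659 CPM, and *Alox15*, a lipoxygenase at 0 against 1018, were among the 10 lowest. Immediate-early genes, which respond within minutes to stimuli and to tissue digestion, were lower than in C1q macrophages as a list, with 10 of 14 4-fold lower, where 2.13% of all genes were, and a median of -2.25. Against monocytes 2 of 14 were 4-fold lower, where 3.26% of all genes were, and the median was -0.34. *Fos* was at 441 CPM, 2240 in C1q macrophages and 452 in monocytes. *Nr4a1* and *Klf2* were the 2 that were lower than in monocytes.

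Lists of iron handling, eicosanoids and ribosomal proteins were read in the same way. Of 18 genes of iron and antioxidant defense, none was 4-fold higher than in monocytes (3.77% of all genes tested were) and 2 were lower (3.26%), *Prdx6* and *Slc11a1*, an iron and manganese transporter of the phagosome at 5.92 against 239 CPM. The ferritin chains *Fth1* and *Ftl1* were at 8482 and 6035 CPM against 3208 and 2815. *Mt1* and *Mt2*, metallothioneins that bind zinc and copper, are not among the 18. They were at 2058 and 595 CPM against 38.7 and 2.62 in monocytes, with 1146 and 468 in C1q macrophages. Of 10 eicosanoid enzymes, 3 were 4-fold higher than in monocytes and 2 lower (3.77% and 3.26% of all genes tested), and of 12 tested against C1q macrophages none was higher and 4 were lower (5.72% and 2.13%). *Ltc4s*, leukotriene C4 synthase, was at 238 against 2.09 CPM in monocytes and *Hpgd*, which inactivates prostaglandins, at 3.68 against 237. Ribosomal protein genes took 63773 CPM, against 27960 in neutrophils, 123938 in C1q macrophages, 132329 in monocytes, 180154 in B cells and 269227 in T cells, and none of 91 was 4-fold apart from monocytes. At 2-fold, 49 of the 91 were lower and 1 was higher (9.34% and 12.3% of all genes tested), with a median log2 ratio of -1.04 against 0.16 for all genes tested.

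Markers of other cells were measured in the same sums. *S100a8* and *S100a9*, the neutrophil proteins, were at 85.2 and 116 CPM against 51346 and 60657 in neutrophils and 33.9 and 57.5 in B cells. The 10 neutrophil markers summed to 242 CPM, the 10 B-cell markers to 35.1, the 12 T- and NK-cell markers to 98.9 with *Gzma* as the largest at 55.6, and the 10 dendritic-cell markers to 59.3, 46.0 of it *Bst2*. *Gzma* was also at 57.5 CPM in B cells. The 15 endothelial, mesenchymal and red cell markers summed to 149 CPM, with *Calcrl* as the largest at 92.8 against 87.9 in monocytes, and 5 of them, the collagen genes among these, had no UMI.

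The cells also differed among themselves. Each of the 265 cells with at least 5000 UMIs was thinned to 5000, and the spread was read as the Fano factor, the variance of a gene's UMIs over its mean, which is 1 for counting error alone. Its median over 1973 genes was 1.25. *S100a9* and *S100a8* had the largest values, 329 and 234, and both rested on 1 cell. That cell put 13.4% of its 5590 UMIs on the pair and held 49.0% of all their UMIs in the 266 cells. It was also the cell nearest the edge of the rule, at 0.107%. Scrublet did not call it a doublet, and without it the pair fell from 201 to 103 CPM.

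Beyond that cell, the most uneven genes were abundant transcripts found in nearly all cells and inducible genes found in some. Among the abundant ones, *Gm42418* had a Fano factor of 58.9, the nuclear RNA *Malat1* 22.6, the ferritin chains *Ftl1* and *Fth1* 16.1 and 12.9, and lysozyme *Lyz2* 12.7. Each of these 5 was found in at least 263 of the 265 cells. Among the inducible genes, the chemokine *Cxcl2* had a Fano factor of 19.7, a median of 1 UMI per 5000 and a highest value of 63, and was found in 137 of 265 cells (51.7%, interval 45.5% to 57.9%) against 4.82% of T cells. *Fos* had a Fano factor of 13.4 and *Il1b* of 13.2, with 80.2% of *Il1b* UMIs in the top 10% of cells. *Dusp1*, a phosphatase of MAP kinases, had one of 11.2. *Spp1* had one of 10.6 and was found in 179 of 265 cells, with up to 52 UMIs. *Kcnip4*, though present in nearly all cells, ranged up to 98 UMIs around a median of 17. *Chil3*, *Lpl*, *Cd9* and *Ctsd* were spread around medians well above 0.

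Summed by list, 7 chemokine and cytokine genes (*Cxcl2*, *Cxcl3*, *Ccl3*, *Ccl4*, *Tnf*, *Il1a* and *Il1b*) had a median of 4 UMIs per 5000, with 42 cells at 0 and a highest value of 141. MHC class II genes had a median of 3, with 34 cells at 0 and 43.6% of their UMIs in the top 10% of cells. Across the 265 cells, immediate-early and chemokine UMIs had a Spearman rho of 0.37 (Pearson r = 0.26), and MHC class II and chemokine UMIs one of 0.04 (r = -0.00133). The cells come from 1 library at 1 thinned depth, so these are descriptions of cells and not of mice.

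**Figure D4:**
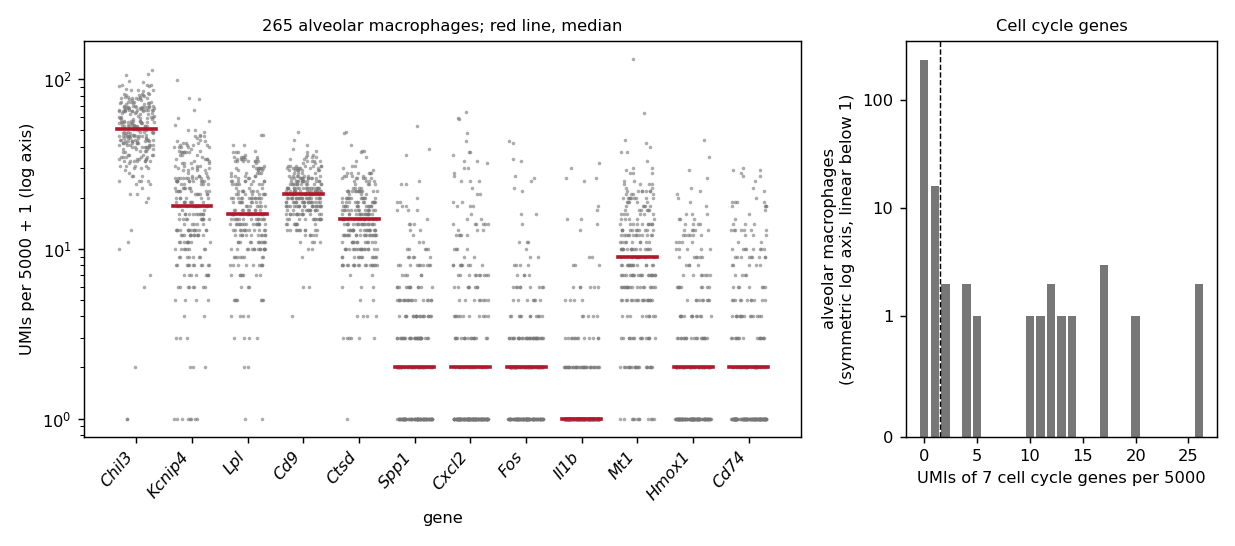
Left, UMIs per 5000 (plus 1, log axis) of 12 genes in each of the 265 thinned alveolar macrophages, with a red line at the median; right, the number of these cells at each summed count of 7 cell cycle genes, with the dashed line at the limit for cycling. Chil3 and Cd9 vary around a high median whereas Cxcl2, Fos and Il1b are near 0 in most cells and high in few, and 232 cells hold no cell cycle UMI while 17 hold 2 or more.

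A small group of the alveolar macrophages expressed cell cycle genes. Cells were called cycling when *Mki67*, *Top2a*, *Cdk1*, *Ccna2*, *Birc5*, *Tpx2* and *Ube2c*, genes of DNA replication and division, reached at least 2 UMIs together after thinning to 5000. This held for 17 of 265 (6.42%, interval 3.78% to 10.1%), with 232 cells at 0 and 12 at 10 UMIs or more. T cells had 13 of 498 (2.61%, interval 1.40% to 4.42%), B cells 5 of 392 (1.28%), neutrophils 2 of 248 (0.806%) and monocytes 0 of 135, which allows a share of up to 2.22% at 3 counts and 2.70% by the exact interval. C1q macrophages had 0 of 8, which allows a share of up to 36.9% by the exact interval, so the alveolar share cannot be compared with theirs. Without thinning, 14.3% of the alveolar macrophages and 5.00% of T cells met the same limit.

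Several cell cycle genes not used for the call were also higher in these cells. *Pclaf*, a partner of the replication clamp, was at 359 CPM in the 17 cycling cells and 1.58 in the other 248, *Rrm2*, which makes deoxynucleotides, at 291 against 1.86, and *Stmn1*, a microtubule regulator, at 1051 against 24.7. S-phase and mitotic genes were both present, with *Mcm5* at 77.9 against 5.45 CPM and *Ccnb1* at 103 against 0.573. The cyclin gene *Ccnd2*, also outside the call, was lower, at 493 against 704 CPM. *Ccnd1* had no UMI in the 17 cells and 7 in the other 248, too few to compare. Of genes outside the rule, *Chil3* was at 9954 against 10122 CPM, *Siglecf* at 127 against 131 and *Lpl* at 2111 against 3599. Of the rule genes, which chose all these cells, *Plet1* was at 931 against 1637 CPM, *Atp6v0d2* at 649 against 1045, *Ear1* at 639 against 948 and *Krt79* at 442 against 497, whereas *Marco* was at 356 against 164. *Cd74* was at 313 against 735 CPM. Scrublet called none of the 17 a doublet.

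Cycling cells were also deep, with a median of 33652 UMIs against 27292, and 15 of the 17 exceeded the study's cell limits. Within those limits 1.98% of the alveolar macrophages met the cycling call. More widely, 64 of 8898 genes were at least 2-fold higher in the 164 cells over the limits than in the 102 within them, and 14 were 2-fold lower. *Top2a* was the most unequal on the log2(CPM + 10) scale, at 87.2 against 2.56 CPM, and 4 genes differed 4-fold in either direction. *S100a9* was the most unequal the other way, at 57.5 against 286 CPM, but the cell rich in *S100a8* and *S100a9* was among the 102. Without it *S100a9* was at 61.1 CPM in the remaining 101, 3 genes differed 4-fold, and 65 of 8896 were 2-fold higher and 12 lower.

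The promoters of the 131 genes high in alveolar macrophages were searched for 4 short motifs on both strands in 300 bases (250 before to 50 after the start) from RefSeq. Promoters were found for 104 of the 131 genes, 136 in all. The E-box CACGTG, bound by factors of the Bhlhe40 and TFE families, was in 20 of 136 (14.7%), against 10.8% of the promoters of all genes tested and 7.15% of all 32851. The AP-1 site TGANTCA was in 8.82% against 4.99% and 7.81%, the nuclear receptor half-site AGGTCA in 12.5% against 12.3% and 16.3%, and the PU.1 core GAGGAAGT in 2.21% against 3.44% and 3.20%. A match is a description of the letters, not a site. The 3 highest-ranked of the 131 genes with an E-box are shown with it in capitals, since *Bhlhe41*, itself an E-box factor, is among them. *Flvcr2*, a membrane transporter, has it 20 bases before the start at chr12:85746289-85746588 (plus strand). *Mgll*, which splits monoacylglycerol, has it 44 bases before at chr6:88724162-88724461 (plus strand). *Bhlhe41* has it 153 bases before at chr6:145865371-145865670 (minus strand).
Flvcr2: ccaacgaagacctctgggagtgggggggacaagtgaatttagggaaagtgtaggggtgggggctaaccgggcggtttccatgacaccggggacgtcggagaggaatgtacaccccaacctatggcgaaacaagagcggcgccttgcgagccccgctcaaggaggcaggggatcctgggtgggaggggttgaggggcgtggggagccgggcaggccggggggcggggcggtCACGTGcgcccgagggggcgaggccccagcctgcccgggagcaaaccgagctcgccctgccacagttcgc
Mgll: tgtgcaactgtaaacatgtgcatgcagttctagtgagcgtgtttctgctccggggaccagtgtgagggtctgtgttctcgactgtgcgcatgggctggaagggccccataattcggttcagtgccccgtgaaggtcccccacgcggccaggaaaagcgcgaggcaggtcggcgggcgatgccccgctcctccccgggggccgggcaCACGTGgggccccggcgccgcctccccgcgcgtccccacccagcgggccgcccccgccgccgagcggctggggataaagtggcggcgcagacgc
Bhlhe41: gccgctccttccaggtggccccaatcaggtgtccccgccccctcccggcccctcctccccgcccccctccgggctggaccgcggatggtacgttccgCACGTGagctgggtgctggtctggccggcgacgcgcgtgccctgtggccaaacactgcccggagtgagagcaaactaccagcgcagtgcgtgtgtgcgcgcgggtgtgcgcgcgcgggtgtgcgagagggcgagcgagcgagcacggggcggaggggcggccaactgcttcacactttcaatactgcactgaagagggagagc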

How the data were processed

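The deposited files held raw UMI counts per gene and cell for droplets called as cells, before the study's cell filters. The authors made these counts with Cell Ranger, on mm10, and per the file headers version 7.1.0 wrote the naive matrix and 6.0.0 both transplant matrices. The submitters' processing notes name Cell Ranger 6 for all. The labels name both a 5′ and a 3′ kit and the methods a 3′ kit, so the chemistry is not settled here. Whether introns were counted was not given in these sources. Both transplant files also held 277 antibody features, which were not used.

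UMIs were summed over the cells of a class and divided by all their UMIs (CPM). Log2 ratios used CPM + 10 and genes with at least 50 UMIs, and a gene was called at 4-fold. Against the highest of the 5 classes the 50 UMIs were counted in alveolar macrophages alone. Against monocytes or C1q macrophages they were counted over both classes together. Alveolar macrophages held 7605733 UMIs, against 1911827 in monocytes and 132582 in C1q macrophages. Genes low in alveolar macrophages therefore reached the minimum less easily, and the shares of genes higher and lower carry this limit. Genes of the rule, C1q, *Cd79a* and *Cd3e* were left out of all comparisons of genes. Against monocytes and C1q macrophages the other gate genes were left out too, 22 genes in all. Against the highest of the 5 classes those other gate genes stayed in, although the gates set their levels. Ratios without the added 10 have exact 95% intervals, given both counts together, levels exact Poisson intervals and shares Clopper-Pearson intervals. A floor of 3 counts over the class was used where a class had none. Thinning drew 5000 UMIs per cell once, with a fixed seed. Doublets were called by Scrublet in scanpy 1.11.5 and kept. Python 3.11.15, numpy 2.4.6 and scipy 1.17.1 were used, and the steps were tested on simulated data.

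Named genes were the rule genes, members of 29 gene lists, and the leading genes by ratio, abundance or Fano factor. *Flvcr2*, *Mgll* and the near copies were chosen after their values were seen. The rule, its members and the lists were chosen with earlier results of these data known. Positions came from GENCODE vM21 on GRCm38 and promoters from RefSeq on GRCm38.p6. Many genes of the fixed lists are counted but not reported singly here. Some lists, among them those of complement genes and of matrix and proteinase genes, are not given as lists.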

Additional observations from a re-analysis of the deposited data

How the results depend on the processing

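The counts of genes 4-fold apart, the number and cycling share of the cells, the levels of named genes and the list medians were computed again, where the setting applies to them, with the study's upper cell limits, without a mitochondrial limit, with a stricter minimum of rule genes or C1q limit, without called doublets, without cells holding UMIs of other cell types, as a mean over cells, thinned, without ribosomal and mitochondrial genes, with CPM + 1, and with genes of 10 UMIs or more. Leaving out the cell rich in *S100a8* and *S100a9* was added after seeing the data. With CPM + 1, 266 genes exceeded all 5 classes by 4-fold (131 with CPM + 10, all of them among the 266), 1929 exceeded C1q macrophages, 856 exceeded monocytes and 500 were under them (358 and 310 with CPM + 10). Within the study's limits 102 alveolar macrophages remained, 1.98% of them were cycling, and 924 genes were above and 124 below C1q macrophages, of which 7 were left. Thinning to 5000 UMIs gave 908 above and 99 below, and the lower minimum gave 331 below. Without cells holding UMIs of other types, 101 alveolar macrophages remained, and unthinned 14.3% were cycling. The cause of these shifts was not tested. Fano factors, correlations and motif shares were not computed again. The other 63 of 76 values of these 7 results stayed within 1.5 times, or within their interval. Of 3965 values of named genes 3641 stayed within their counting interval and 324 moved, none changing sign when called, and of 868 list medians 770 stayed. Of the 131 genes, 119 were also called within the study's limits and 116 after thinning.

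No paired analysis was possible because each group has 1 library. One library of 2 pooled mice gives no spread between animals, and the level of a gene in C1q macrophages rests on 9 cells. Classes with fewer UMIs have wider intervals for low genes.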
